A study of Mus musculus with 2 samples.

Results

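The genes described here are 33 genes of blood coagulation and fibrinolysis, picked by gene name from a list drawn up with earlier results of these arrays known. Serpin inhibitors are not among them. They were 33 of 31827 gene names on the array and were read by 44 of 39422 probes, each an oligonucleotide of 60 bases. Total RNA of liver was labelled with Cy3 and hybridized to 1-colour Agilent arrays, 1 array for a wild-type C57BL/6 liver and 1 array for a liver of the genotype Alb-Cre;CAG-floxed neo-Snail on the same strain. Alb-Cre is a Cre recombinase driven in hepatocytes by the albumin promoter, and the transgene joins the CAG promoter and a floxed neo cassette to Snail, a zinc-finger repressor of transcription. The labels give neither age nor sex nor diet, and do not say whether a library came from 1 animal or from pooled animals. The comparison asks how the liver of the transgenic genotype differs from the wild-type liver in these genes.

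Coagulation is a cascade of proteases that circulate as inactive precursors. Contact of factor XII with a charged surface, or of factor VII with tissue factor, starts a chain that ends with thrombin, which cuts fibrinogen into fibrin. Factors II, VII, IX and X and proteins C, S and Z need vitamin K for the carboxylation of their Gla domains. Most of the soluble factors are made by hepatocytes, while factor VIII, von Willebrand factor, thrombomodulin and the endothelial protein C receptor come from endothelial cells. Plasmin, made from plasminogen by tissue or urokinase plasminogen activator, dissolves the clot.

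Each group had 1 array, so nothing could be tested against replicate error, and every difference below compares 2 libraries and not 2 genotypes. The single Snai1 probe had a signal of 23.2 in the wild type and 22.3 in the transgenic liver. It was not higher there, and the sources used here do not say whether it lies in the transgene. It therefore cannot serve as a check of the genotype, and the transgenic sample is referred to as the library labelled Snail. Of 43020 non-control spots, 50.7% for wild type and 54.0% for the transgenic liver were well above background by the scanner software's own call. Signals quoted below are processed signals in arbitrary units, not scaled between the arrays. Folds and log2 differences are of signals divided by the 75th percentile of their own array, a signal of 232.7 for wild type and 302.1 for the library labelled Snail. Probes printed at least 5 times gave a median SD of the log2 difference between spots of 0.19 for signals under 100, 0.07 from 100 to 1000 and 0.04 above 1000. Such an SD covers noise on the slides and says nothing of how animals differ.

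Of the 33 genes, 29 were well above background on both arrays, 2 only in the library labelled Snail and 2 on neither. Detection in 1 library leaned the same way over the whole array. Of all 31827 gene names, 1390 were seen only in the library labelled Snail and 461 only in wild type. Among the 29, 6 were at least 2-fold lower in the library labelled Snail, against 6.34% of all 15448 genes measured on both arrays, and 1 was at least 2-fold higher, against 3.97% of all. The lower share among these genes was 20.7%. Their median log2 difference was -0.63, beside -0.03 over all measured genes. Below 0 were 23 of the 29, beside 8122 of all 15448.

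**Figure D1:**
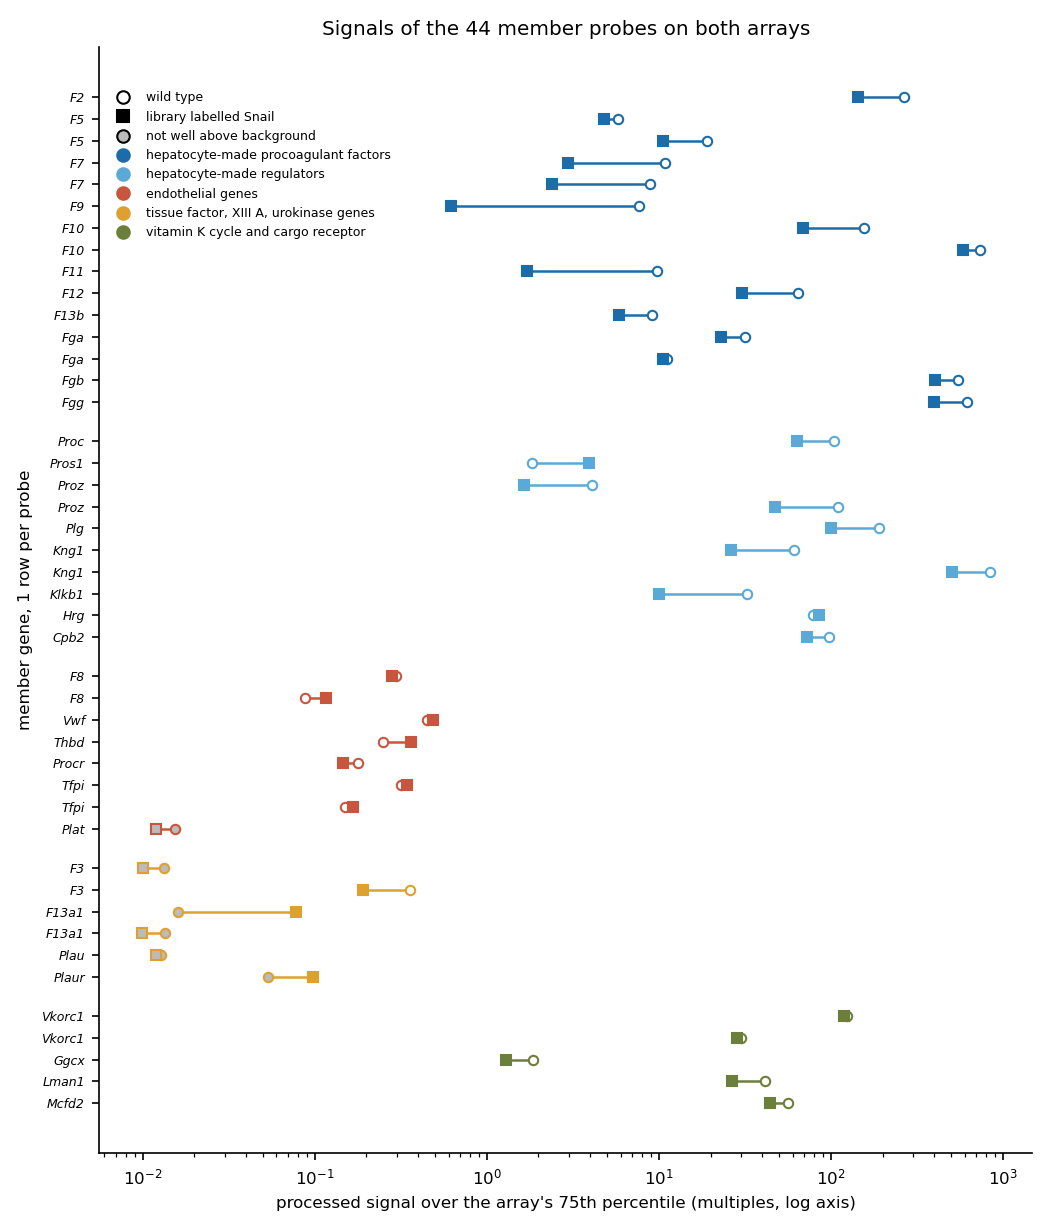
Signal of each of the 44 probes on both arrays, as a multiple of the 75th percentile of the array (log axis), with open circles for wild type, squares for the library labelled Snail and grey fill where the probe was not well above background. The longest distance among probes seen on both arrays is that of F9, from 7.73 to 0.62 multiples, and the Pros1 square lies to the right of its circle.

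Hepatocyte-made procoagulant factors were lower in the library labelled Snail, all 11 of them by some amount and 4 by at least 2-fold. The median log2 difference of the 11 was -0.75, and the values ran from -3.64 to -0.28. The gene furthest apart was F9, which encodes factor IX, the vitamin K-dependent protease missing in haemophilia B. Its probe on chromosome X from 57282894 to 57282953 (mm9) gave 1798 for wild type and 187.9 for the library labelled Snail, a 12.4-fold lower level. F11, which encodes factor XI, the protease that activates factor IX, was 5.68-fold lower, with signals of 2275 and 520.5 at chromosome 8 from 46326753 to 46326812 (mm9). F7, the factor that acts with tissue factor, was 3.69-fold lower. Its overlapping probes on chromosome 8 from 13035257 to 13035346 (mm9) gave the log2 differences -1.87 and -1.89, with signals of 2525 and 894.8 at the first and 2083 and 727.7 at the second. All 3 differences exceed the SD of repeated spots many times over. In liver RNA, fewer cells of a type and less RNA per cell cannot be told apart, here and for every gene that follows.

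The other members of this group lay near or under the 2-fold mark. F12, which encodes the contact factor XII, was 2.12-fold lower, with signals of 15092 and 9233 on chromosome 13. Its log2 difference of -1.09 was -0.81 under quantile normalization and was within 2-fold under 4 of the 10 alternatives. F2, which encodes prothrombin, was 1.85-fold lower, with signals of 61777 and 43348. F5, the cofactor of the complex that makes thrombin, was 1.47-fold lower, and its probes gave -0.27 and -0.85. F13b, the carrier subunit of the fibrin-crosslinking factor XIII, was read by 10 spots of 1 probe, with a mean log2 difference of -0.65 ± 0.06 (SD over spots) and a range from -0.74 to -0.57. For this gene, then, the difference exceeds the spread of every spot, though it is smaller than 2-fold.

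The 3 fibrinogen chains, which are the clot's substrate, were all lower by less than 2-fold. Fgg was 1.55-fold lower, with signals of 143915 and 120959, and Fgb 1.37-fold, with 127441 and 121171. The probes of Fga gave -0.46 and -0.09, a mean of -0.28. Under quantile normalization the Fgb log2 difference was -0.04 in place of -0.45 and that of Fgg -0.18 in place of -0.63, so their size depends on the scaling.

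F10, which encodes the factor X protease where the intrinsic and extrinsic branches meet, was read by 2 probes that did not give the same size of difference. The first lies on chromosome 8 from 13055774 to 13055833 (mm9), where signals of 36186 and 20806 give a 2.26-fold lower level. The second, from 13056119 to 13056178, had signals of 170647 and 176537 and a log2 difference of -0.33. The sequences are shown because they bear on what each probe reads: the first in full, and 30 bases of the second with a stretch of 20 bases in capitals.
F10 first probe: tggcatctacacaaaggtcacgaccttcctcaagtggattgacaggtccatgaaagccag
F10 second probe, bases 7 to 36: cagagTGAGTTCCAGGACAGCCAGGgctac
The capitals occur, on either strand, in 24 of the 32851 promoter sequences in the RefSeq table (GRCm38.p6), and some stretch of 20 bases of this probe occurs in the promoters of 57 other genes. The letters are those of B1, an interspersed repeat of the mouse genome with very many copies. None of the other 43 member probes shared 20 bases with the promoter of another gene, and the accessions of the second F10 probe also name Glrx2. The mean of both probes is -0.75, and without the second probe F10 was -1.18, which is past 2-fold and makes 7 of the members lower in place of 6.

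Hepatocyte-made regulators of clotting and fibrinolysis were mixed. Of 8 genes 6 were below 0, 2 were past 2-fold downward and 1 was past 2-fold upward. Klkb1, which encodes plasma prekallikrein, the partner of factor XII in contact activation, was 3.27-fold lower, at signals of 7624 for wild type and 3023 for the library labelled Snail, on chromosome 8 from 46355052 to 46355111 (mm9). Proz, which encodes protein Z, the cofactor of an inhibitor of factor X, was 2.41-fold lower, and its probes gave -1.31 and -1.23 although their wild-type signals were 948.2 and 25773. Both genes kept a difference of at least 2-fold under all 10 alternatives, as did F9, F11 and F7. The alternatives that change only the filter, the probe choice or the names left Klkb1, F9 and F11 at their reported values. For these genes only the changes of background or scaling could move the difference.

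Pros1, which encodes protein S, the cofactor of activated protein C, went the other way. It gave 425.4 for wild type and 1194 for the library labelled Snail, a 2.16-fold higher level, at chromosome 16 from 62928674 to 62928733 (mm9). Over the alternatives its log2 difference stayed between 1.07 and 1.19. Protein S is known to be made by endothelial cells and macrophages as well as by hepatocytes. Proc, which encodes protein C itself, was 1.64-fold lower, at signals of 24265 and 19179. The gene of the enzyme and that of its cofactor lay on opposite sides of 0.

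Plg, which encodes plasminogen, was 1.90-fold lower, with signals of 44079 and 30126. Kng1, which encodes kininogen, the carrier of prekallikrein, was 1.96-fold lower over probes at -1.22 and -0.73. Both Kng1 probes also list accessions of its near copy Kng2, so the 2 genes cannot be separated here, and the Kng2 probe gave -0.77. Cpb2, whose product TAFI slows fibrinolysis, was 1.34-fold lower, with signals of 22660 and 21915. Hrg, which encodes histidine-rich glycoprotein, a plasma protein that binds heparin and plasminogen, was 1.09-fold higher, with signals of 18240 and 25808. Hrg and Pros1 were the only hepatocyte-made members above 0.

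**Figure D2:**
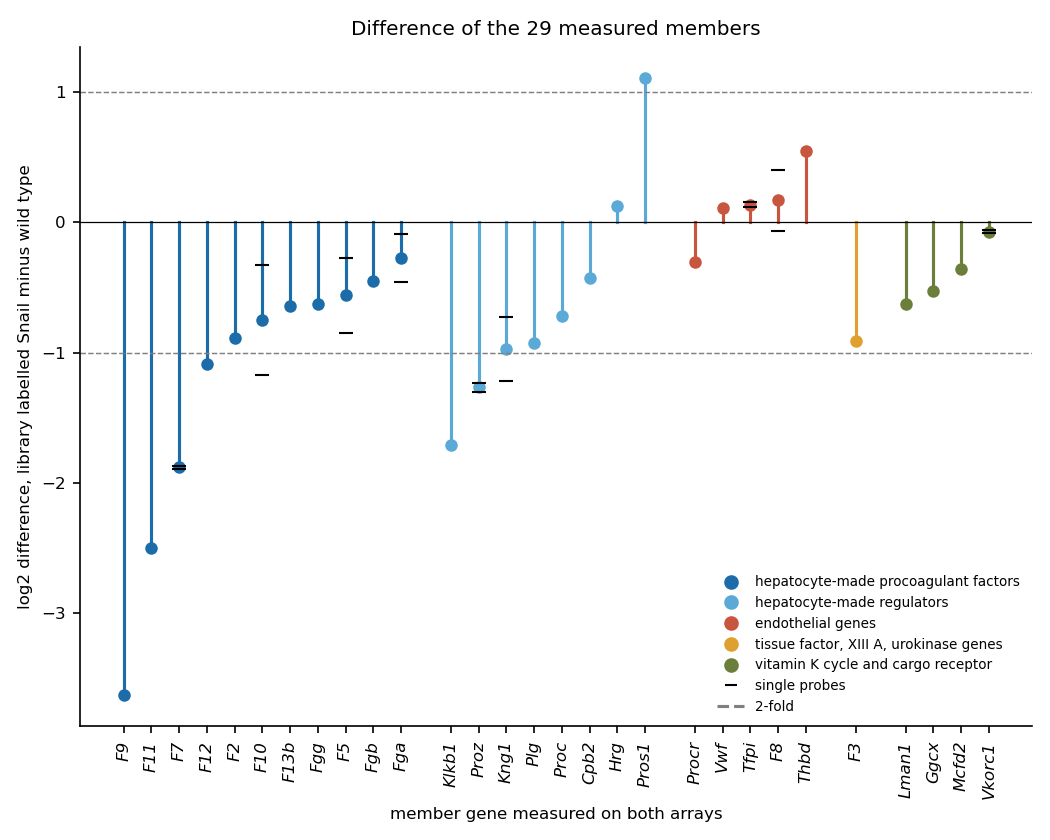
Log2 difference between the library labelled Snail and wild type for the 29 members measured on both arrays, ordered by size within each functional group, with short black bars for single probes where a gene has over 1 and dashed lines at 2-fold. Blue points, the hepatocyte-made members, reach down to -3.64 for F9, and red points, the endothelial members, lie between -0.30 and 0.55.

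Over the 19 hepatocyte-made members, 17 were below 0, beside 8122 of all 15448 genes, and the median was -0.75. General hepatocyte markers were lower as well. All 9 measured markers were below 0, with a median of -0.65, among them Alb at -0.63, Ttr at -0.94 and Ahsg at -0.79, and none was 2-fold apart. Their summed level, in multiples of the 75th percentile, was 6061 in wild type and 3950 in the library labelled Snail, and that of the hepatocyte-made members was 2651 and 1669. Bright genes were lower in general: over the 1009 genes with a signal of 10000 and over the median was -0.15, and 9.32% were at least 2-fold lower. Under quantile normalization the median of the hepatocyte markers was -0.11 and that of the hepatocyte-made members -0.51, and with loess centring they were -0.34 and -0.57. The part of scaling and of hepatocyte content in the smaller differences was not tested.

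**Figure D3:**
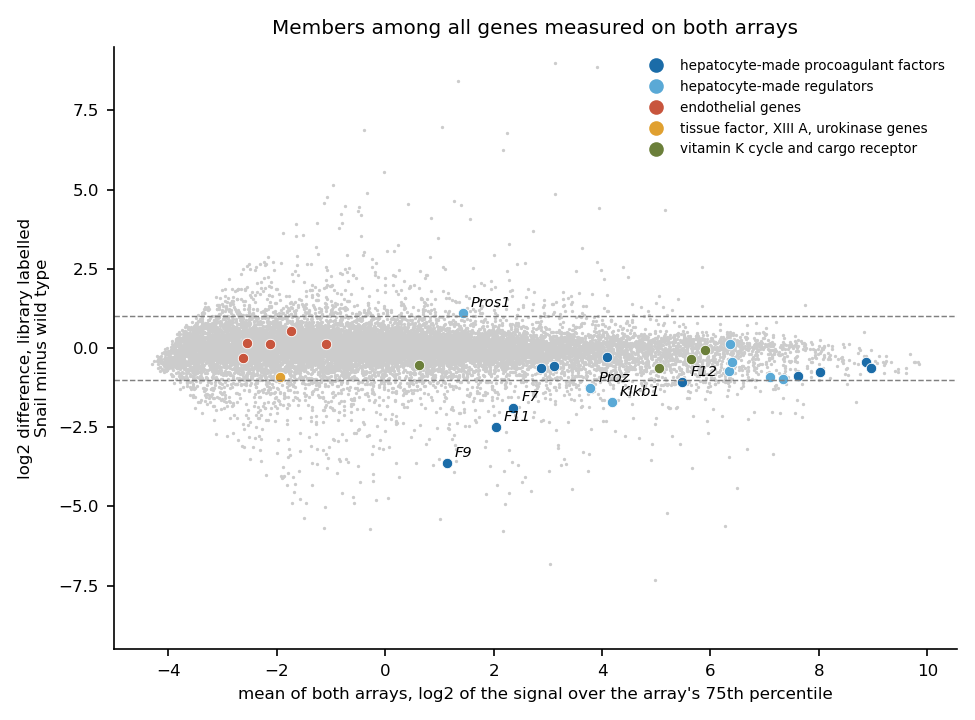
Log2 difference against the mean level on both arrays for all 15448 genes measured on both (grey) and for the 29 members (coloured by group), with dashed lines at 2-fold and names for members past it. F9, F11 and F7 sit below most grey points of like level, while most other hepatocyte-made members lie at higher levels between 0 and -1.

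The 7 vitamin K-dependent members did not share a size or a direction. F9, F7 and Proz were at least 2-fold lower, F2, F10 and Proc were lower by less, and Pros1 was higher. Their median was -0.89. Both statements take F10 as the mean of its probes. Its first probe alone, which is not repeat-like, was 2.26-fold lower and would place F10 among the genes past 2-fold. The 4 genes of the vitamin K cycle and of the cargo receptor for factors V and VIII had a median of -0.44. Vkorc1, the vitamin K epoxide reductase that warfarin blocks, had probes at -0.06 and -0.08, and its sign turned under 4 alternatives: quantile normalization, loess centring, the percentile over detected spots and the authors' value table. Ggcx, the carboxylase that makes Gla residues, was 1.44-fold lower, at signals of 432.0 and 390.1. The cargo receptor subunits Lman1 and Mcfd2, which carry those 2 factors out of the endoplasmic reticulum, were 1.55-fold and 1.28-fold lower. None of these 4 genes was 2-fold apart.

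The median of the endothelial coagulation genes lay near 0, unlike that of the hepatocyte-made ones. It was 0.14, which became -0.022 with normexp background correction. Of the 5 measured genes 4 were above 0 and none was 2-fold apart. Over all 15448 measured genes, 7326 were above 0. Signals of the endothelial genes were low, between 20.6 and 147.9, where repeated spots spread most. Thbd, which encodes thrombomodulin, the receptor that turns thrombin toward protein C, was 1.46-fold higher, with signals of 57.9 and 109.9. With normexp background correction the Thbd log2 difference was 0.20 in place of 0.55. Vwf, the platelet-tethering von Willebrand factor, had a log2 difference of 0.11, with signals of 105.3 and 147.9. Tfpi, which encodes the inhibitor of the tissue factor pathway, gave 0.12 and 0.16 at its probes. With normexp background correction its value was -0.02.

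F8, which encodes factor VIII, the cofactor of factor IX, had probes at -0.06 and 0.41, a mean of 0.17. It was below 0 with normexp background correction and with the brighter probe alone. Procr, which encodes the endothelial protein C receptor, was 1.23-fold lower, with signals of 41.8 and 44.04. Plat, which encodes tissue plasminogen activator, did not clear background in either library, at 3.61 and 3.63. Apart from Thbd at its reported 0.55, the gene-level differences are within 2 times the SD of repeated spots at such signals.

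General endothelial markers were close to the endothelial coagulation genes. Of 15 markers 13 were measured, 9 were above 0 and only Lyve1 passed 2-fold. The median was 0.06, with a summed level of 64.5 multiples in wild type and 65.1 in the other. The junction marker Cdh5 was at 0.05, the sinusoidal scavenger receptor Stab2 at -0.23 and Lyve1, a sinusoidal and lymphatic marker, at 1.99. Tek and Emcn were detected in the library labelled Snail alone. No endothelial marker was below background on both arrays.

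The tissue factor, factor XIII A and urokinase genes were dim. F3, which encodes tissue factor, was 1.88-fold lower at its only measured probe, at signals of 83.5 and 57.6. With normexp background correction its log2 difference was -0.60 in place of -0.91. Its second probe did not clear background. F13a1, the catalytic factor XIII subunit of macrophages and megakaryocytes, was detected in the library labelled Snail alone, at 23.6 against 3.72 in wild type. Against the lowest level called well above background on the wild-type array it was at least 1.32-fold higher, and its second probe was seen on neither array. Plaur, the urokinase receptor, was likewise seen only there, with signals of 12.5 and 29.5, and was at least 1.64-fold higher. Plau, urokinase itself, was at 2.98 and 3.62, below background on both arrays.

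Macrophage and platelet markers are given beside F13a1 and Plaur. Of 10 macrophage and Kupffer cell markers on the array, 9 were measured, 8 were above 0 and 1, the scavenger receptor Marco, was 2.83-fold higher. The Kupffer cell lectin Clec4f was at 0.15. The list's median was 0.11, and its summed level was 68.8 multiples in wild type and 82.3 in the other. Of 9 platelet and megakaryocyte markers 2 were measured on both arrays, the platelet chemokine Pf4 at 0.60 among them, and 4 others were seen only in the library labelled Snail. Itga2b, Gp1ba and Gp6 were below background on both, and the summed level was 0.81 and 1.16 multiples. The part of these cells in the values of F13a1 and Plaur was not tested.

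**Figure D4:**
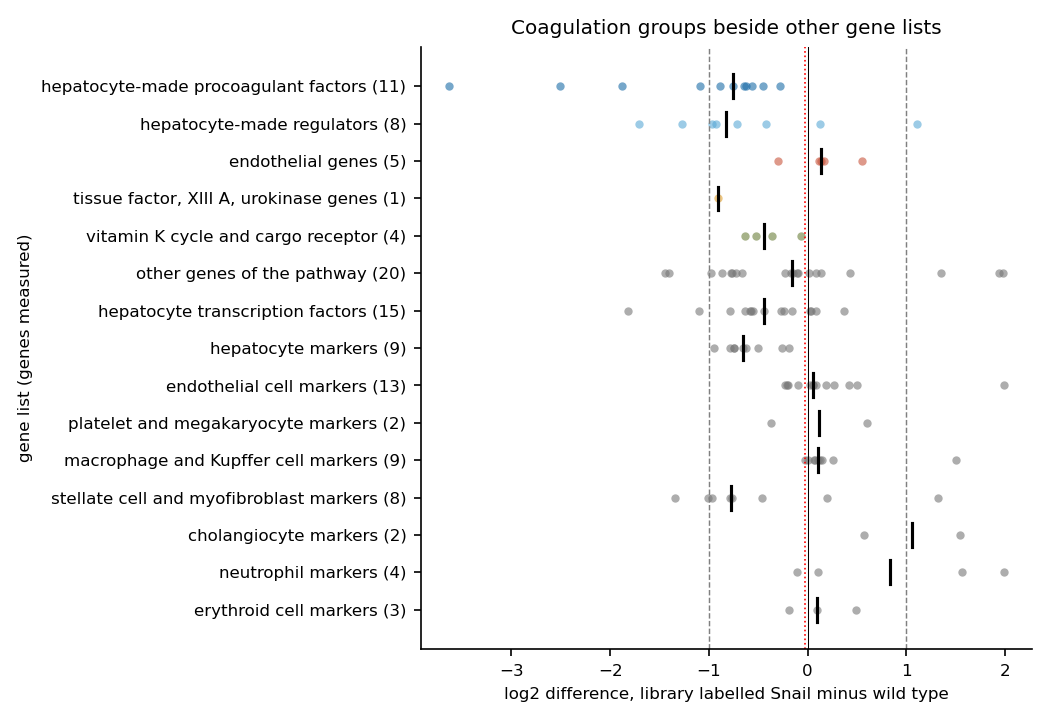
Log2 differences of single genes (points) and their median (black bar) for the 5 groups of members and for lists of other pathway genes, hepatocyte transcription factors and cell type markers, with the number of genes measured on both arrays in parentheses, dashed lines at 2-fold and a red dotted line at the median of all genes, -0.03. The medians of both hepatocyte-made groups and of the hepatocyte markers lie at -0.75, -0.82 and -0.65, and those of the endothelial genes and markers lie at 0.14 and 0.06.

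Several members are neighbours in the genome, and neighbours did not share 1 value. F7, F10 and Proz follow each other on chromosome 8 with no other protein-coding gene between them in RefSeq. They were lower by 3.69-fold, 1.68-fold and 2.41-fold. The F10 value is the mean of its probes, and its first probe alone was 2.26-fold lower, close to Proz. F11 and Klkb1, which arose from a common ancestor, are adjacent on the same chromosome and were lower by 5.68-fold and 3.27-fold. The fibrinogen genes Fgg, Fga and Fgb adjoin on chromosome 3, with log2 differences of -0.63, -0.28 and -0.45. On chromosome 16, Hrg, Kng2 and Kng1 follow each other, and Hrg was at 0.12 while the kininogen genes were at -0.77 and -0.97.

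The promoters of the 4 members furthest below wild type and of Pros1, the only one at least 2-fold higher, are shown to set those letters beside the differences. Each runs from 120 bases before the start of transcription to 30 after it on the gene's strand, from RefSeq (GRCm38.p6). Capitals mark matches, on either strand, to CAGGTG (the E-box that Snail binds), TTGCNNAA (C/EBP), TGTTTAC (FOXA) or CAAAGTCC (HNF4), and no marked matches overlap.
F9, chrX:59999344-59999493, plus strand: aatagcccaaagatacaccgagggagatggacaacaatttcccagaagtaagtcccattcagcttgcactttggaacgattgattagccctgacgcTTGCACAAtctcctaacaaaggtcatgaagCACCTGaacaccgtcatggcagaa
F11, chr8:45262002-45262151, minus strand: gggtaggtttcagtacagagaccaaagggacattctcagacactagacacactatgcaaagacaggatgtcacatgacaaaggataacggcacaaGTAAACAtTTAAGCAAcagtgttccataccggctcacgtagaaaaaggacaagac
F7, chr8:13025914-13026063, plus strand: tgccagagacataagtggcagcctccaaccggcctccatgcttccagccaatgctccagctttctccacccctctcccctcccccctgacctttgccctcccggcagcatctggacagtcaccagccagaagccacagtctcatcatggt
Klkb1, chr8:45294806-45294955, minus strand: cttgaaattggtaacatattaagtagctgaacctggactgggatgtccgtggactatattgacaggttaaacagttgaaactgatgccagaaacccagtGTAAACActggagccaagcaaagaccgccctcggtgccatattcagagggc
Pros1, chr16:62854187-62854336, plus strand: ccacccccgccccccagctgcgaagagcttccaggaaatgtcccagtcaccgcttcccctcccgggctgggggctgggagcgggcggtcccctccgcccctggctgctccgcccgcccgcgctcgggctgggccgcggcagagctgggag
In F9 the C/EBP match begins 24 bases before the start and the E-box 7 bases into the transcript. F11 and Klkb1 both hold the FOXA motif, 25 and 21 bases before the start. F7 and Pros1 hold none of the 4 motifs in this window.

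Promoters of 250 bases before to 50 after the start were in the table for 25 of the 33 members. The E-box CAGGTG was in 5 of their 27 promoters (18.5%), those of F8, F9, Proz, Tfpi and Vkorc1, against 20.2% of all 32851 promoters. The E-box was thus about as frequent as in promoters at large, and its carriers include F9 at -3.64 and F8 at 0.17. TTGCNNAA was in 10 of the 27 member promoters (37.0%), against 10.8% of all promoters. TGTTTAC was in 3 of the 27 (11.1%), against 3.65% of all promoters. Shares of hepatocyte-made members count genes and not promoters. Among the 16 such members with a promoter, 7 (43.8%) held TTGCNNAA and 2 (12.5%) the E-box. Those with TTGCNNAA were F9, F11, Klkb1, Cpb2, Hrg, Fga and Fgb, which range from -3.64 to 0.12. TGTTTAC was in 2 of the 16 (12.5%), F11 and Klkb1. CAAAGTCC was in none of the members' promoters and in 1.42% of all. A match is a run of letters and not a measured binding site.

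Other genes of the pathway did not lean one way. Of 25 on the array 20 were measured. Past 2-fold were 3 upward and 2 downward, and the median of -0.16 became 0.04 under quantile normalization. F2r, which encodes the thrombin receptor PAR1, was 3.93-fold higher, with signals of 415.6 and 2123, and the other thrombin or protease receptors F2rl1, F2rl2 and F2rl3 were below background on both arrays. Nqo1, a quinone reductase that can reduce vitamin K, was 3.85-fold higher, with signals of 163.5 and 817.2. Anxa2, a cell-surface receptor of plasminogen named after its value was seen, was 2.55-fold higher, with signals of 848.8 and 2813. Fgl1, a fibrinogen-like hepatokine, was 2.65-fold lower over 3 probes. Enpp4, an ectoenzyme reported to promote platelet aggregation, was 2.73-fold lower. Fgl2 was seen only on the wild-type array, at signals of 14.6 and 8.36. By the bound for genes seen on 1 array, its level in the library labelled Snail was at most 0.68 times that in wild type.

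Transcription factors that control liver genes are given as a list without reference to any 1 target. Of 15 measured, 11 were below 0, beside 8122 of all 15448 genes, and the median was -0.44. Past 2-fold were 2 downward (13.3%) and 0 upward, against 6.34% and 3.97% of all genes. Foxa3 was 3.52-fold lower, with signals of 281.0 and 103.7, and Onecut1 2.15-fold, with 240.6 and 145.4. Cebpa was at -0.78. Hnf4a, a main regulator of hepatocyte genes, was at -0.24. It lies outside the naming rule and is given because its motif was searched. The members and these factors were read in the same 2 libraries, so no relation between them can be drawn from these values.

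**Figure D5:**
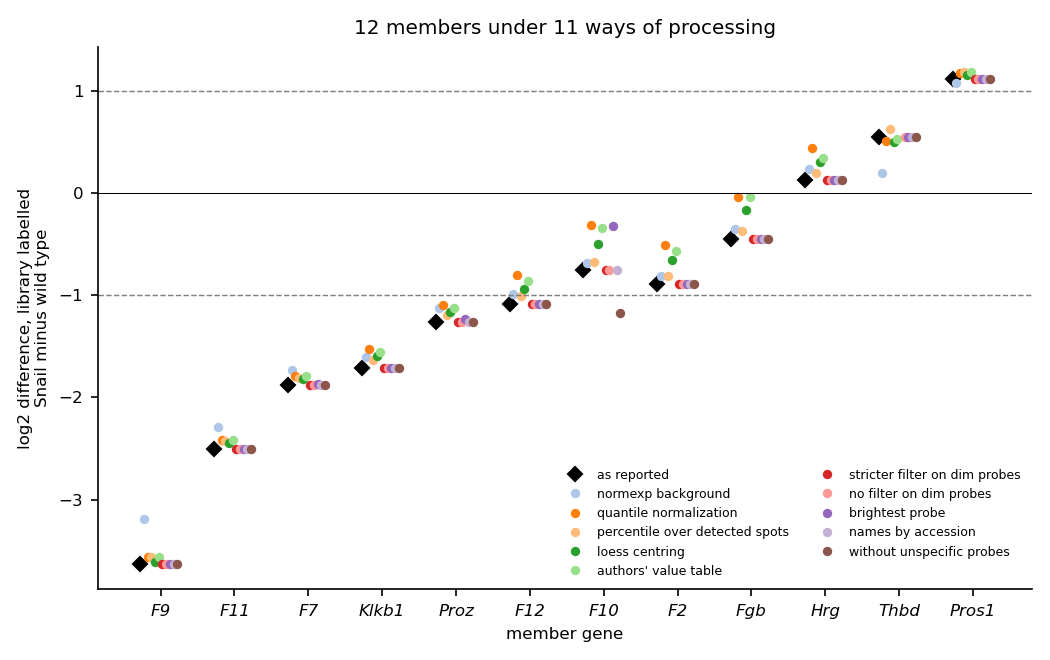
Log2 difference of 12 members as reported (black diamonds) and under the 10 alternatives (coloured points), with dashed lines at 2-fold. F9, F11, F7, Klkb1, Proz and Pros1 stay on their side of the 2-fold line, F12 crosses it under 4 alternatives, and F10 crosses it where the repeat-like probe is left out.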

How the data were processed

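The submitters' processing notes name Agilent Feature Extraction 9.5.1.1, whose output the authors deposited. Per the file headers, the intensity of each spot had its background subtracted and its spatial trend removed, with no scaling from array to array, and positions are in mm9. Exon and UTR positions of the probes were not analysed here. A deposited value table of the same arrays, linear and with a median intensity of 17.3 in both columns, served as an alternative; how it was scaled is not given in the sources used here.

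Control spots and 287 spots marked as outliers were left out. None was saturated. The value is log2 of the processed signal minus the 75th percentile of the non-control spots on that array, with spots of a probe averaged and a gene taken as the mean of its probes well above background on both arrays. Genes seen on 1 array have a bound, the bright level over the higher of the dim level and the lowest level called well above background. The rule of size was 2-fold, with no test, since there was 1 array per group.

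Members, role groups, lists and alternatives were chosen with earlier results of these data known. All 33 members could be named, and of every other list up to 4 genes with the largest differences, genes seen on 1 array and defining markers; exceptions are said in the text. Tools were Python 3.11.15, pandas 2.3.3, statsmodels 0.14.6 and limma 3.58.1 in R 4.3.3. The 10 alternatives were normexp with an offset of 50, quantile normalization, the percentile over spots detected on both arrays, loess, the value table, a signal of at least 100 on both arrays, no filter, the brightest probe, names by accession and, added after seeing the data, leaving out the 3 member probes that list another gene, 1 of which is repeat-like. In the setting without a filter, levels under the lowest level called well above background on an array were raised to it. A 1.5-fold rule was also tried. A further promoter motif that was searched is not reported here.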

Additional observations from a re-analysis of the deposited data

How the results depend on the processing

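The count of members at least 2-fold lower was 6 as reported and between 5 and 7 under the 10 alternatives, and 15 with a 1.5-fold rule, where 14.5% of all genes were lower. Of the 6, F9, F11, F7, Klkb1 and Proz were past 2-fold under every one of these alternatives and F12 under 6 of them. The count of higher members was 1, Pros1, under all. The median of the hepatocyte-made members, -0.75, was -0.51 under quantile normalization, -0.57 with loess centring and -0.54 in the authors' value table. That of the endothelial members, 0.14, was -0.022 with normexp. The cause of these shifts was not tested. Of 284 values of single members under the alternatives, 167 moved by less than the SD of repeated spots and 117 by more. The 167 include values that could not move, since a filter, probe choice or naming rule leaves a bright gene with 1 probe unchanged. F2, for example, stayed at -0.888 under such settings and moved under each change of background or scaling. The count is therefore not a measure of stability to scaling. No called member changed sign. F8, Tfpi and Vkorc1, none of them past 2-fold, did. With the stricter filter 1 endothelial member was left. Over all genes, the counts past 2-fold were 979 lower and 613 higher as reported, 572 and 297 with normexp, and 606 and 262 with the stricter filter, which tests fewer genes. Without a filter the median of all genes was -0.475, beside -0.03. That setting raises each dim level to the lowest level called well above background on its array. These levels were signals of 13.81 for wild type and 12.91 for the library labelled Snail. A gene seen on neither array, as 14520 of 31827 were, takes the scaled difference between these 2 levels. The median without a filter is therefore not a measure of dim genes. The number of arrays limits the precision, and low signals over background limit the endothelial members.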

Other observations

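Markers of further cell types were read beside the coagulation genes. The 4 measured neutrophil markers did not move alike. The calprotectin genes S100a8 and S100a9 were at 1.99 and 1.57, while Elane was at 0.10 and Camp at -0.11. Mpo was detected in the library labelled Snail alone and was at least 2.075-fold higher. Ngp and Ltf were below background on both arrays. Among stellate cell and myofibroblast genes, Ecm1 at -1.34 and Lrat at -1.01 were past 2-fold downward. The fibrillar collagen gene Col1a1 at 1.32 was past it upward, and the 8 measured had a median of -0.77. That median leaves out Acta2, which was detected in the library labelled Snail alone. Its signals were 14.4 and 36.1, an observed ratio of 1.93-fold higher, with the wild-type signal not called well above background. Of 6 cholangiocyte markers, Sox9 was 2.92-fold higher, Spp1 was at 0.58, Cldn4 was detected in the library labelled Snail alone, and Krt19, Krt7 and Epcam were below background on both arrays. All 5 adipocyte markers were below background on both. The 3 measured erythroid genes were Alas2 at 0.49, Hbb-b1 at 0.09 and Hba-a1 at -0.19.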
